A study of Mus musculus with 49 samples.

Results

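The 10 genes described here mark the pyramidal cells of the hippocampal fields in the mouse. Wfs1, Fibcd1, Pou3f1 and Mpped1 mark CA1, and Amigo2, Rgs14, Pcp4, Bok, Grik4 and Cpne4 mark CA2 or CA3. They were taken by name from a table of 42521 expression rows, where each of the 10 stood on a single row. All 10 were tested, among the 16029 rows that averaged 0.5 FPKM or more (fragments scaled by transcript length and by library size).

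Hippocampal RNA was sequenced from 49 C57BLKS/J mice at 3 months of age, with 1 library for each mouse. The labels name 6 groups by codes: HFD-C, with 9 libraries, and FFD-C, HFD-F, FD-C, CD-C and CD-F, with 8 each. There were 4 libraries marked XX in every group and the others were marked XY. From the series title, on maternal obesity, offspring and dietary fibre, the first part of each code was taken to stand for what the mother ate and its last letter for what the offspring ate; no label explains the codes. No allele, transgene or drug is named for any group. The titles also carry 20 prefixes, which may mark litters; 3 of them hold mice of both HFD-C and HFD-F. The libraries are of bulk hippocampus, in which fewer cells of a type and less RNA per cell cannot be told apart.

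In the hippocampal circuit, dentate granule cells send mossy fibres to CA3 pyramidal cells, whose axons reach CA1, the main output field. CA2 lies between CA3 and CA1 and is known for its part in social memory, while CA3 and CA1 serve spatial and contextual memory. Each field is set apart by genes that its pyramidal cells express at high levels, so that in a dissected piece of tissue these genes read both the state of the cells and the share of each field.

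The libraries held the transcripts of a hippocampus. The dentate granule cell factor Prox1 had a median of 17.1 FPKM over 47 libraries, and the 10 field genes averaged between 22.4 FPKM (Pcp4) and 268 FPKM (Grik4). 2 libraries stood apart. Library 1 of FFD-C had Prox1 at 1.49 FPKM against at least 5.32 in the other 47, C1ql2 at 0.368 against at least 9.05, and Dsp at 0 against at least 0.894, all dentate genes; the mean log2 deviation of 16 dentate genes was -1.57 there against -1.23 to 0.80 in the 47, and that of 13 CA1 genes other than the 4 was -1.14 against -0.46 to 0.33. The gene Lct is on both the dentate and the CA1 list. Library 3 of HFD-F had the striatal dopamine receptor genes Drd1 at 49.6 FPKM and Drd2 at 33.5, against at most 22.9 and 10.3 in the other 47, and its mean over 10 striatal genes was 2.18 against -0.62 to 0.95. 4 of the 8 CD-C libraries held Alb, a liver transcript, at 24.3 to 50.1 FPKM. Several values of the 10 genes that the first 2 move are given also without them, though not all such values are. Leaving out the 4 with Alb let none of the 10 genes pass.

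The promoters of 3 of the genes are shown because the first 2, Amigo2 and Cpne4, varied together most closely among the 10 and the third, Wfs1, varied in the opposite direction. Each runs from 250 bases before to 50 bases after a start listed in RefSeq, on build GRCm38.p6, and is written 5′ to 3′ on the strand of the gene. For Amigo2 and Wfs1 this is the start of the gene. The Cpne4 window lies inside the gene, which starts at 104566701, and RefSeq lists another Cpne4 window at 104587808-104588107. Capitals mark a match to one of the motifs searched.
Amigo2 (chr15:97247238-97247537, minus strand): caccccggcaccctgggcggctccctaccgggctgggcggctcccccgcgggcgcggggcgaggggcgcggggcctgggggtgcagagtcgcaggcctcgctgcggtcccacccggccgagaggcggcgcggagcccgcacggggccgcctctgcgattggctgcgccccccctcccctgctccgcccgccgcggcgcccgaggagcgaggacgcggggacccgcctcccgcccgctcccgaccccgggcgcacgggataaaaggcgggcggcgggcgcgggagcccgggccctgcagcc
Cpne4 (chr9:104569405-104569704, plus strand): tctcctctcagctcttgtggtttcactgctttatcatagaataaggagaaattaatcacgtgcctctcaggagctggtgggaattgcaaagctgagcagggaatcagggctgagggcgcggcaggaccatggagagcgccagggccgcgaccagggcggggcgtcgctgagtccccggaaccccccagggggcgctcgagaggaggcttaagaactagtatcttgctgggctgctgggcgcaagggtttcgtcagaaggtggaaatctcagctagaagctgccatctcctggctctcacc
Wfs1 (chr5:36988933-36989232, minus strand): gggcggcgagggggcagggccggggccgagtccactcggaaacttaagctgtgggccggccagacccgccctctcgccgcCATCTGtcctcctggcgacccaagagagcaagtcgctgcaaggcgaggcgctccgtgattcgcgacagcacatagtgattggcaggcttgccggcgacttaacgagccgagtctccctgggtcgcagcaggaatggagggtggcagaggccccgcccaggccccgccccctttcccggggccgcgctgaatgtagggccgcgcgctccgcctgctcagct
RefSeq promoters were at hand for 8 of the 10 genes, without Pou3f1 and Rgs14. Both strands were searched for CAGCTG and CAGATG, which are E-boxes read by neuronal bHLH factors, and for ATGCAAAT, the octamer read by POU factors. The motifs did not overlap with each other in any of these windows. CAGCTG was present in 16.3% of all 32851 promoters in the RefSeq table, CAGATG in 17.2% and ATGCAAAT in 1.74%. Wfs1 held 1 CAGATG, read on the other strand as CATCTG, and the windows of the other 7 genes held none of these letters. The Amigo2 window was 83.3% G or C and the Wfs1 window 70.0%, against 58.7% in that of Cpne4.

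Wfs1 (wolframin, an endoplasmic reticulum membrane protein that acts in calcium handling and the stress response, also expressed in upper layers of the neocortex; chromosome 5, 36966104 to 36988982 on GRCm38.p6) averaged 92.9 ± 30.1 FPKM (SD, n = 49). From the highest to the lowest group it stood at 103 ± 27.0 FPKM in HFD-F, 99.2 ± 36.1 in CD-F, 94.4 ± 25.1 in CD-C, 91.8 ± 34.7 in FD-C, 89.0 ± 22.4 in HFD-C and 80.9 ± 37.6 in FFD-C. The lowest, median and highest libraries were 42.4, 95.3 and 120.3 FPKM in CD-C; 30.3, 104 and 149 FPKM in CD-F; 42.5, 88.1 and 158 FPKM in FD-C; 30.4, 88.3 and 139 FPKM in FFD-C; 57.2, 100.1 and 112 FPKM in HFD-C; and 67.6, 106 and 141 FPKM in HFD-F. Every group held libraries both above and below the median of all 49, and the spread within CD-F, from 30.3 to 149 FPKM, was wider than the distance between any pair of group means.

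Fibcd1 (a membrane receptor for acetylated compounds such as chitin; chromosome 2, 31813290 to 31846964) was the highest of the CA1 genes per length, at 213 ± 66.3 FPKM (SD, n = 49). Its group means were 235 ± 64.6 FPKM in HFD-C, 226 ± 61.5 in FD-C, 212 ± 100.3 in FFD-C, 207 ± 34.5 in CD-C, 202 ± 67.1 in CD-F and 191 ± 65.7 in HFD-F. The lowest, median and highest libraries were 158, 219.5 and 248 FPKM in CD-C; 114, 183 and 296 FPKM in CD-F; 144, 231 and 311 FPKM in FD-C; 11.6, 235 and 349 FPKM in FFD-C; 165, 236 and 383 FPKM in HFD-C; and 125, 162 and 302 FPKM in HFD-F. The low end in FFD-C was library 1, which was also low in dentate transcripts; the next lowest Fibcd1 of all libraries was 114 FPKM, in CD-F. Library 8 of HFD-C, at 383 FPKM, was the highest of all.

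Pou3f1 (a POU-domain transcription factor, also known from myelinating Schwann cells; chromosome 4, 124657646 to 124660655) had group means of 140.0 ± 43.2 FPKM in CD-F, 138 ± 35.7 in CD-C, 135 ± 38.5 in HFD-C, 125 ± 51.9 in FD-C, 120.4 ± 36.7 in FFD-C and 118 ± 48.3 in HFD-F. Its libraries ran from 34.4 FPKM, in HFD-F library 3, to 220.1 FPKM, in FD-C library 7. Apart from that HFD-F library the lowest value was 54.7 FPKM, in FD-C, so that FD-C spanned nearly the whole range.

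Mpped1 (a protein with a metallophosphoesterase domain, whose role in these cells is not settled; chromosome 15, 83779472 to 83858487) had the narrowest range of the CA1 genes. Its means were 87.7 ± 17.8 FPKM in CD-F, 81.0 ± 18.5 in HFD-C, 80.1 ± 19.8 in FFD-C, 75.9 ± 16.6 in FD-C, 74.7 ± 11.1 in CD-C and 72.8 ± 16.3 in HFD-F. Single libraries lay between 43.8 and 117 FPKM, a range of 2.67-fold, against 33.0-fold for Fibcd1 and 5.22-fold for Wfs1. Without the 2 libraries apart these ranges were 2.17-fold, 3.35-fold and 5.22-fold, so that the wide range of Fibcd1 was that of FFD-C library 1 alone.

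Among the CA2 and CA3 genes, Amigo2 (a cell adhesion protein with leucine-rich repeats, used as a CA2 marker; chromosome 15, 97244074 to 97247287) differed most between groups in proportion, with a ratio of 1.45 between the highest and the lowest group mean. The means were 28.7 ± 11.2 FPKM in FD-C, 23.2 ± 10.2 in FFD-C, 23.1 ± 8.57 in HFD-C, 22.7 ± 6.0 in HFD-F, 22.5 ± 7.27 in CD-C and 19.8 ± 7.85 in CD-F. The lowest, median and highest libraries were 15.7, 19.9 and 34.8 FPKM in CD-C; 6.50, 20.8 and 31.3 FPKM in CD-F; 11.3, 33.1 and 40.8 FPKM in FD-C; 8.84, 20.7 and 42.2 FPKM in FFD-C; 9.93, 25.6 and 33.6 FPKM in HFD-C; and 17.1, 20.6 and 34.5 FPKM in HFD-F. FD-C held both some of the highest libraries and one of the lowest, at 11.3 FPKM, and its values overlapped those of every other group.

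Rgs14 (a regulator of G-protein signalling that restrains synaptic plasticity in CA2; chromosome 13, 55369732 to 55384687) had means of 84.5 ± 35.1 FPKM in HFD-F, 78.6 ± 24.8 in CD-F, 76.4 ± 11.2 in CD-C, 76.0 ± 16.8 in HFD-C, 76.0 ± 23.2 in FFD-C and 68.2 ± 17.0 in FD-C. Its libraries ran from 39.2 FPKM, in FFD-C library 1, to 152 FPKM, in HFD-F library 8. HFD-F had the highest mean and also the widest SD of the 6 groups.

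Pcp4 (a small regulator of calmodulin found in CA2 as well as in other brain regions; chromosome 16, 96467606 to 96525793) had means of 26.1 ± 6.30 FPKM in FFD-C, 23.8 ± 3.52 in CD-C, 22.8 ± 4.66 in HFD-C, 22.1 ± 6.61 in FD-C, 20.7 ± 3.96 in HFD-F and 18.6 ± 3.38 in CD-F. The lowest, median and highest libraries were 19.3, 22.8 and 30.9 FPKM in CD-C; 13.6, 17.9 and 23.4 FPKM in CD-F; 14.6, 19.4 and 32.6 FPKM in FD-C; 17.9, 24.2 and 38.0 FPKM in FFD-C; 16.9, 22.6 and 33.5 FPKM in HFD-C; and 15.2, 20.5 and 28.7 FPKM in HFD-F. CD-F was low as a group: its highest library, at 23.4 FPKM, lay just above the CD-C median, yet the 2 groups overlapped. FFD-C held the highest library, at 38.0 FPKM.

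Bok (a member of the Bcl-2 family of cell death regulators, enriched in CA3; chromosome 1, 93685575 to 93695770) had the widest spread of the CA2 and CA3 genes. Its means were 102 ± 51.0 FPKM in FD-C, 95.4 ± 58.0 in FFD-C, 92.1 ± 70.4 in CD-F, 83.2 ± 17.8 in CD-C, 82.8 ± 34.5 in HFD-C and 74.4 ± 25.5 in HFD-F. Single libraries ran from 17.5 to 253 FPKM, and both of these ends were CD-F libraries. Library 3 of FFD-C, at 226 FPKM, was the next highest.

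Grik4 (a kainate-type glutamate receptor subunit, known from the mossy fibre synapses of CA3; chromosome 9, 42518182 to 42945000) was the highest of the 10 genes per length. Its means were 304 ± 108 FPKM in FD-C, 292 ± 77.6 in CD-F, 269 ± 32.4 in HFD-F, 259.9 ± 58.8 in HFD-C, 243 ± 82.2 in FFD-C and 239 ± 57.3 in CD-C. The lowest, median and highest libraries were 136, 234 and 341 FPKM in CD-C; 207, 286 and 447 FPKM in CD-F; 150.1, 327 and 432 FPKM in FD-C; 146, 239 and 367 FPKM in FFD-C; 173, 269.6 and 356 FPKM in HFD-C; and 236, 261 and 336 FPKM in HFD-F. CD-C and FFD-C were lowest by mean and FD-C highest, but FD-C also held a library at 150.1 FPKM, below the CD-C median.

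Cpne4 (a copine, one of a family of proteins that bind phospholipids when calcium rises; chromosome 9, 104566701 to 105034544) had the most even group means of the 10, with a ratio of 1.17 between highest and lowest. They were 113 ± 21.0 FPKM in HFD-F, 107 ± 23.1 in CD-C, 107 ± 33.9 in HFD-C, 107 ± 42.6 in FD-C, 105 ± 34.7 in CD-F and 96.8 ± 37.6 in FFD-C. Libraries ran from 34.5 FPKM, in FFD-C library 6, to 167 FPKM, in FD-C library 5.

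For all 10 genes the groups overlapped in each of the 15 pairs of groups; over all rows tested, 0.363% of such pairs did not overlap, so that nearly every gene shows this with groups of this size. In the order of group means there were 50 pairs of neighbours over the 10 genes, and in all 50 the means lay closer together than the smaller of the SDs of both groups. Neighbours in a sorted order lie close with groups of this size. The share over all rows was not taken, so the count only describes the values.

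**Figure D1:**
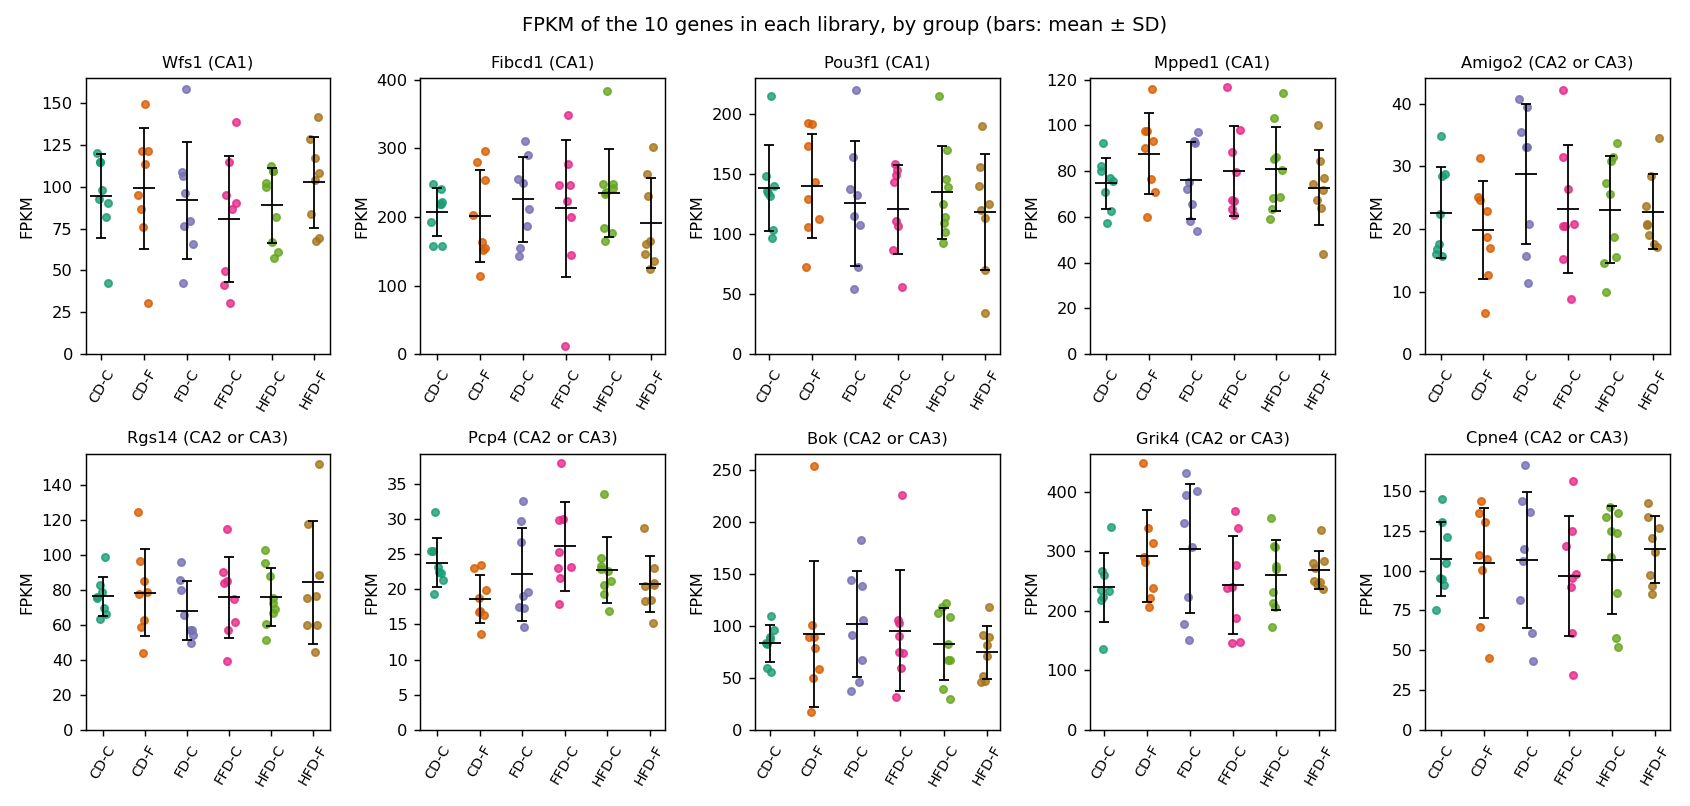
Each point is the FPKM of 1 library, in 1 panel per gene with the 6 groups along the x axis and FPKM, from 0, on the y axis; bars are group means ± SD. The groups overlap in every panel, and the FFD-C library at 11.6 FPKM of Fibcd1 and the CD-F library at 253 FPKM of Bok lie far from the other points of their groups.

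Differences were tested with limma on log2(FPKM + 0.5) in a single model with all 49 libraries, a term for each group and the XX or XY mark. The test was two-sided, with p-values adjusted by the Benjamini-Hochberg method over the 16029 rows and a threshold of 0.05. Differences below are on that log2 scale. CD-C enters 4 of the comparisons of groups and HFD-C 3, so that these share libraries. Mice were the units of the test, while each group held only 3 to 6 title prefixes, which may mark litters. None of the 10 genes passed in any of the 9 tests. At an unadjusted p under 0.05, 1 of the 10 was found in CD-F against CD-C and 1 in the test of any difference among the groups, Pcp4 in both, and 0 in the other 7 tests. Over all rows the shares at that level were 26.8% and 24.4% in these 2 tests, 16.6% in HFD-F against HFD-C, 9.54% in FD-C against CD-C, 8.25% in XX against XY, 5.96% in FFD-C against HFD-C, 3.29% in FFD-C against CD-C, 2.75% in the interaction and 2.36% in HFD-C against CD-C. A p that misses the threshold does not show that a gene was equal between groups, and the intervals show what size of difference the data leave possible.

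For the maternal code, HFD-C against CD-C had 0% of all rows passing, with 379 rows at an unadjusted p under 0.05. The CA1 genes differed by -0.06 (Wfs1) to 0.15 (Fibcd1), and the CA2 and CA3 genes by -0.12 (Bok) to 0.12 (Grik4). The tightest 95% interval was that of Pcp4, -0.08 (-0.36 to 0.20), and the widest that of Bok, -0.12 (-0.84 to 0.60). The median over the 4 CA1 genes was 0.02 and over the 6 others -0.04, against -0.01 over all rows tested.

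FD-C against CD-C had 0.2% of all rows passing. Grik4 differed by 0.29 (SE 0.20, 95% interval -0.11 to 0.69, adjusted p = 0.708) and Amigo2 by 0.28 (SE 0.287, 95% interval -0.30 to 0.86, adjusted p = 0.840), both with higher values in FD-C. Pou3f1 differed by -0.22 (SE 0.266, 95% interval -0.75 to 0.32, adjusted p = 0.883) and Rgs14 by -0.19 (-0.59 to 0.22), toward lower values. The medians of the CA1 genes and of the CA2 and CA3 genes were -0.03 and 0.02, beside -0.01 over all rows.

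FFD-C against CD-C had 0.00624% of all rows passing. Fibcd1 gave -0.34 (SE 0.356, 95% interval -1.06 to 0.38, adjusted p = 0.999) and Wfs1 gave -0.32 (SE 0.272, 95% interval -0.87 to 0.23, adjusted p = 0.999). The Fibcd1 value rested on FFD-C library 1: without it and HFD-F library 3 it turned to 0.19 (SE 0.204). Cpne4 was -0.24 (-0.77 to 0.29), and the next furthest from 0, Pou3f1, Pcp4 and Mpped1, were -0.23 (-0.77 to 0.30), 0.11 (-0.18 to 0.40) and 0.08 (-0.23 to 0.39). Pou3f1 was -0.09 (SE 0.229) without the 2 libraries. The CA1 median was -0.28 and that of the CA2 and CA3 genes -0.02, but -0.02 and 0.06 without them.

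FFD-C against HFD-C had 0% of all rows passing and 956 rows at an unadjusted p under 0.05. Fibcd1 again gave the difference furthest from 0, -0.49 (SE 0.346, 95% interval -1.19 to 0.21, adjusted p = 0.770), and it was 0.03 (SE 0.198) without the 2 libraries apart. Pcp4 differed by 0.19 (SE 0.140, 95% interval -0.09 to 0.47, adjusted p = 0.776). All 4 CA1 genes had lower values in FFD-C, from -0.49 to -0.02, and with the 2 libraries left out 3 of the 4 did.

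With the maternal code CD, the offspring code comparison CD-F against CD-C was the comparison with the most rows passing, 13.4%, yet none of the 10 field genes was among them. Pcp4 came closest, at 18.6 ± 3.38 FPKM in CD-F against 23.8 ± 3.52 in CD-C (SD, n = 8 each), a log2 difference of -0.35 (SE 0.144, 95% interval -0.64 to -0.06, adjusted p = 0.0977) with limma. Over the alternative settings and the removal of single libraries its adjusted p ran from 0.0552 to 0.230 and its difference stayed between -0.41 and -0.30. Grik4 had higher values in CD-F, by 0.29 (SE 0.20, 95% interval -0.12 to 0.69, adjusted p = 0.378), as did Mpped1, by 0.22 (SE 0.154, 95% interval -0.09 to 0.53, adjusted p = 0.391). Wfs1, Pou3f1 and Rgs14 lay close to 0, at 0.01 (-0.54 to 0.56), -0.01 (-0.54 to 0.53) and -0.01 (-0.42 to 0.40).

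The medians of the CA1 and of the CA2 and CA3 genes were 0.00 and -0.12, beside 0.02 over all rows.

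Grik4 gave the single call for any of the 10 genes under another setting. It fell in CD-F against CD-C, where 13.4% of all rows passed in the main fit. With the level of the other CA3 genes as a covariate, a setting chosen after seeing the data, the CD-F against CD-C difference was 0.35 (SE 0.105, adjusted p = 0.0181 by limma); over the alternatives its adjusted p ran from 0.0181 to 0.654. The within-group deviations of Grik4 and of that CA3 level were correlated (r = 0.86).

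HFD-F against HFD-C had 1.67% of all rows passing. Fibcd1 differed by -0.32 (SE 0.346, 95% interval -1.01 to 0.38, adjusted p = 0.710) and Pou3f1 by -0.28 (SE 0.258, 95% interval -0.80 to 0.24, adjusted p = 0.637), both with lower values in HFD-F. Without the 2 libraries apart Fibcd1 was -0.24 (SE 0.199) and Pou3f1 -0.04 (SE 0.223). Pcp4 had lower values here too, by -0.12 (-0.41 to 0.16). Wfs1, at 0.19 (-0.34 to 0.72), and Cpne4, at 0.14 (-0.37 to 0.66), had higher values. The CA1 median was -0.22 and that of the CA2 and CA3 genes 0.06, beside 0.00 over all rows; without the 2 libraries the CA1 median was -0.05. Within the 3 prefixes that hold both groups, with 3 HFD-C and 8 HFD-F libraries, a fit with the prefix as a fixed block was chosen after seeing the data. It gave -0.62 for Fibcd1 (SE 0.247) and -0.48 for Mpped1 (SE 0.177), both with an adjusted p of 0.865 by limma, and none of the 10 passed. In each of the 3 prefixes the mice of the 2 groups carried different XX or XY marks. The HFD-C side of prefix HFD3.2 was library 8 alone, with the highest Fibcd1 of all (383 FPKM) and Mpped1 at 114 FPKM. Prefix HFD2.5 held HFD-F library 3, which stood apart (Fibcd1 125 FPKM, Mpped1 43.8).

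The interaction between the codes asks whether the offspring diet made a different difference under the HFD and the CD maternal codes; 0% of all rows passed, with 441 at an unadjusted p under 0.05. Mpped1 had the smallest p of the 10: its values were higher in CD-F than in CD-C and lower in HFD-F than in HFD-C, with a difference between these of -0.37 (SE 0.215, 95% interval -0.80 to 0.06, adjusted p = 0.9998) and an unadjusted p of 0.0922. Without the 2 libraries apart, the Mpped1 difference in HFD-F against HFD-C went from -0.15 to -0.05 (SE 0.148). The interaction median of the CA1 genes then went from -0.25 to -0.09, and that of the CA2 and CA3 genes from 0.16 to 0.18. Pcp4, with lower values under F for both maternal codes, gave 0.23 (-0.18 to 0.63).

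Any difference among the 6 groups was found for 12% of all rows by limma's F-test. Pcp4 had an unadjusted p of 0.0434 and an adjusted p of 0.188, and the other 9 genes had adjusted p between 0.709 (Grik4) and 0.970 (Bok).

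XX against XY had 0.112% of all rows passing and none of the 10 genes. Wfs1 stood at 98.9 ± 28.2 FPKM in the 24 XX libraries and 87.2 ± 31.2 in the 25 XY libraries, a difference of 0.22 (SE 0.156, 95% interval -0.09 to 0.54, adjusted p = 0.720). Mpped1 was closest to 0, at 0.00 (-0.17 to 0.18), and the remaining 8 genes lay between -0.18 (Fibcd1) and 0.06 (Cpne4).

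**Figure D2:**
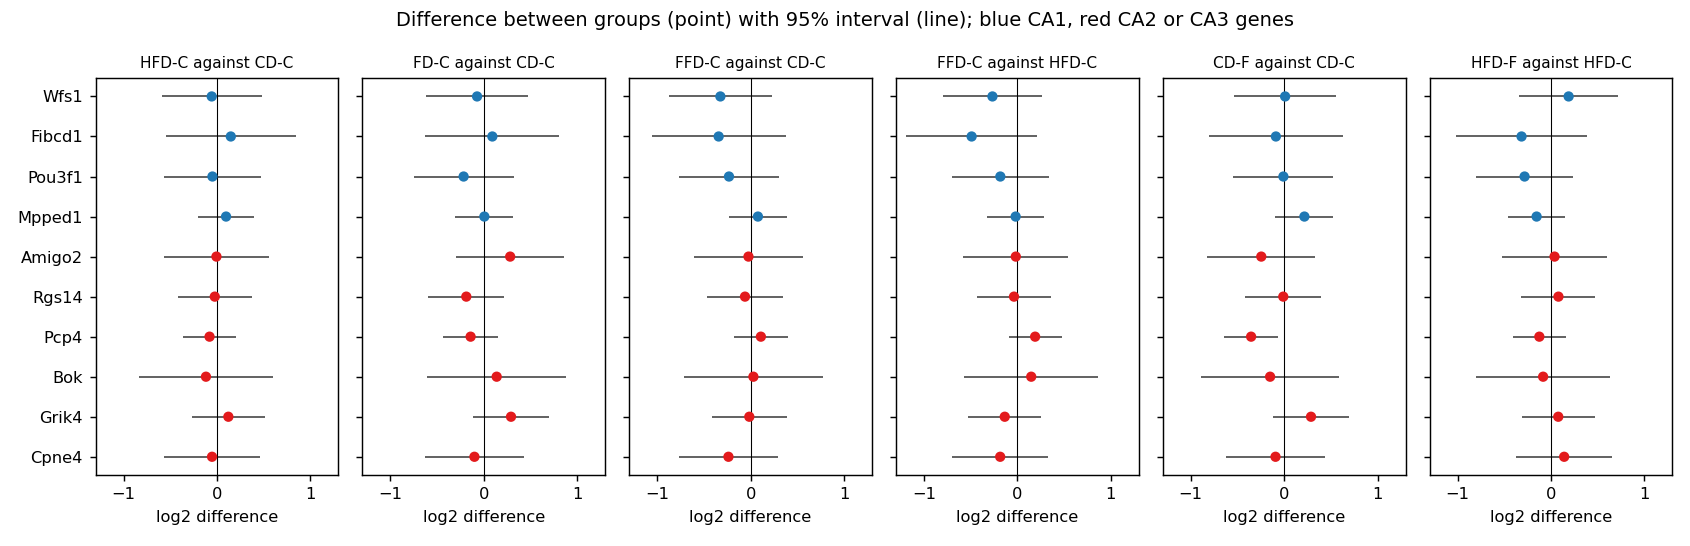
Each point is the log2 difference of a gene between a pair of groups in 1 of 6 comparisons, and each line its 95% interval from limma; CA1 genes are blue and CA2 or CA3 genes red. The interval of Pcp4 in CD-F against CD-C, from -0.64 to -0.06, is the one that does not reach 0.

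Lists of other genes of the same fields were read beside the 10. For CA1, 13 of 14 listed symbols were tested (the list holds both names of Nov), for CA2 11 of 12, and for CA3 15 of 17. The lists share some genes. Lct (CA1) and Stxbp6 (CA2) are also on the dentate list, and Sostdc1 (CA2) on that of choroid plexus. Csf2rb2 (CA3) is also on the mossy cell list and Prkcd (CA3) on that of thalamus. None of the other CA1 or CA3 genes passed with limma in any of 8 comparisons; at an unadjusted p under 0.05 there were 9 of 104 CA1 values and 4 of 120 CA3 values, where 9.45% of the values of all rows did. Of the other CA2 genes, 3 passed in CD-F against CD-C, where 13.4% of all rows did, and 0 passed elsewhere; 7 of 88 values had an unadjusted p under 0.05. The median of that list was 0.18 in CD-F against CD-C and 0.24 in HFD-F against HFD-C, against 0.02 and 0.00 over all rows.

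Ptpn5, a tyrosine phosphatase known from striatal as well as hippocampal neurons, stood at 88.2 ± 10.2 FPKM in CD-F, higher than the 71.1 ± 9.39 of CD-C (SD, n = 8 each; log2 difference 0.31, SE 0.0967, adjusted p = 0.0246 by limma). Adcy5, the main adenylyl cyclase of the striatum, rose from 75.7 ± 7.23 to 103 ± 15.9 FPKM (log2 difference 0.43, SE 0.147, adjusted p = 0.0405). Vcan, a proteoglycan of the extracellular matrix, fell from 7.69 ± 0.902 to 5.90 ± 2.06 FPKM (log2 difference -0.43, SE 0.144, adjusted p = 0.0406). Ptpn5 in CD-C ran from 57.4 to 85.9 FPKM and in CD-F from 75.7 to 102, so the 2 groups overlapped, as they did for the other pair of genes. Of 16 other settings, Ptpn5 and Adcy5 passed in 12 and Vcan in 11. All 3 calls were lost with the GC trend removed, at adjusted p of 0.325, 0.261 and 0.216, and when the 4 libraries with Alb were left out, at 0.0681, 0.0883 and 0.0532. With means per title prefix Ptpn5 (0.182) and Adcy5 (0.0999) were lost, with only these 2 groups in the fit Ptpn5 (0.0502) and Vcan (0.163), with no filter on low values Adcy5 (0.0736) and Vcan (0.0730), and with the prefix as a random block Vcan (0.0522). The calls were kept in 11, 7 and 6 of the 16 fits that left out a single library; the highest adjusted p was then 0.0673 for Ptpn5 without CD-C library 3, 0.0968 for Adcy5 without CD-F library 1 and 0.127 for Vcan without CD-F library 8. The level of 10 striatal marker genes was taken as their mean log2 deviation from the 49-library mean. It ran from -0.52 to 0.95 in CD-F and from -0.43 to 0.03 in CD-C, with 0 of the 10 passing. That of 11 neocortex genes ran from 0.00 to 0.45 in CD-F and from -0.40 to 0.22 in CD-C. Of these 11 genes 0 passed, but 5 had an unadjusted p under 0.05 with limma, and their median difference was 0.27. Of the other marker lists, 2 of 10 endothelial, 1 of 11 astrocyte, 1 of 11 microglial and 1 of 14 pan-neuronal genes passed toward higher values in CD-F, 2 of 16 dentate, 1 of 7 mossy cell and 3 of 5 liver genes passed toward lower ones, and none passed in the lists of subiculum, interneurons, oligodendrocytes, choroid plexus, thalamus and hypothalamus. The part of these tissues and cells in the differences was not tested. The within-group deviations of Pcp4 had r = 0.07 with the neocortex level and 0.36 with the striatal one.

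Libraries of 1 group differed widely, and in a patterned way. Deviations of log2(FPKM + 0.5) from the group and mark were taken in each of the 49 libraries. Their SD was 0.755 for Bok and 0.731 for Fibcd1, larger than in 95.2% and 94.9% of the 5257 rows whose mean lay in the same range as those of the 10 genes. Amigo2 (0.589), Wfs1 (0.558), Pou3f1 (0.545) and Cpne4 (0.538) were above 90.8% of those rows or more. Pcp4 (0.292) and Mpped1 (0.314) lay nearest to the median row, which had an SD of 0.241. Without the 2 libraries apart, the SD of Fibcd1 was 0.403, above 83.1% of the rows in that range, and that of Pou3f1 0.452, above 86.7%, while Bok (0.766), Amigo2 (0.597), Wfs1 (0.571) and Cpne4 (0.540) were still above 91.3% or more.

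The deviations were then compared between genes by Pearson's r and Spearman's rho, in 45 pairs, with permutation p-values (100000 permutations, two-sided) adjusted by Benjamini-Hochberg over the 45. The smallest p these can give is 1e-05, adjusted 4.09e-05. In 24 pairs both coefficients passed at 0.05, 15 positive and 9 negative. The values of a library share its total and its dissection, and litters may be shared, so that the 49 points are not fully independent.

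Amigo2, Bok, Grik4 and Cpne4 formed a tight set. Amigo2 and Cpne4 had r = 0.89, rho = 0.82, Bok and Cpne4 r = 0.86, rho = 0.82, Grik4 and Cpne4 r = 0.82, rho = 0.82, and Amigo2 and Grik4 r = 0.80, rho = 0.81, each with an adjusted permutation p of 4.09e-05. Within single groups r stayed between 0.58 and 0.97 for Amigo2 and Cpne4, and between 0.67 and 0.93 for Grik4 and Cpne4. Without the 2 libraries furthest from the median, Amigo2 and Cpne4 had r = 0.85, and over the means of the 20 title prefixes r = 0.88. Bok correlated with Amigo2 at 0.76 and with Grik4 at 0.68, but less evenly, since within groups the first ran from 0.17 to 0.95.

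The CA1 genes Wfs1 and Mpped1 ran against this set. Wfs1 had r = -0.72, rho = -0.73 with Grik4 and r = -0.70, rho = -0.71 with Amigo2 (adjusted permutation p = 4.09e-05 for each), with a negative sign in all 6 groups. Mpped1 had r = -0.62, rho = -0.67 with Cpne4 and r = -0.58, rho = -0.62 with Amigo2. Leaving out the 2 furthest libraries gave r = -0.69 for Wfs1 and Grik4 and -0.65 for Mpped1 and Cpne4. Mpped1 and Cpne4 were negative in 5 of the 6 groups, with r up to 0.24 in the other one. Over title prefix means the Wfs1 and Grik4 value was -0.67.

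Single libraries show this opposition. In library 3 of FFD-C, Amigo2 was 42.2 FPKM, Bok 226 and Cpne4 156, while Wfs1 was 30.4. In library 6 of the same group, Amigo2 was 8.84 FPKM, Bok 31.3, Cpne4 34.5 and Wfs1 139. Thus 2 mice of 1 group lay at opposite ends for all 4 genes. Library 7 of FD-C resembled the latter, with Amigo2 at 11.3 FPKM, Cpne4 at 43.1 and the highest Wfs1 of all, 158. Library 6 of CD-F resembled the former, with the highest Grik4, 447 FPKM, beside the lowest Wfs1, 30.3. These libraries were picked to show the ends of the range.

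**Figure D3:**
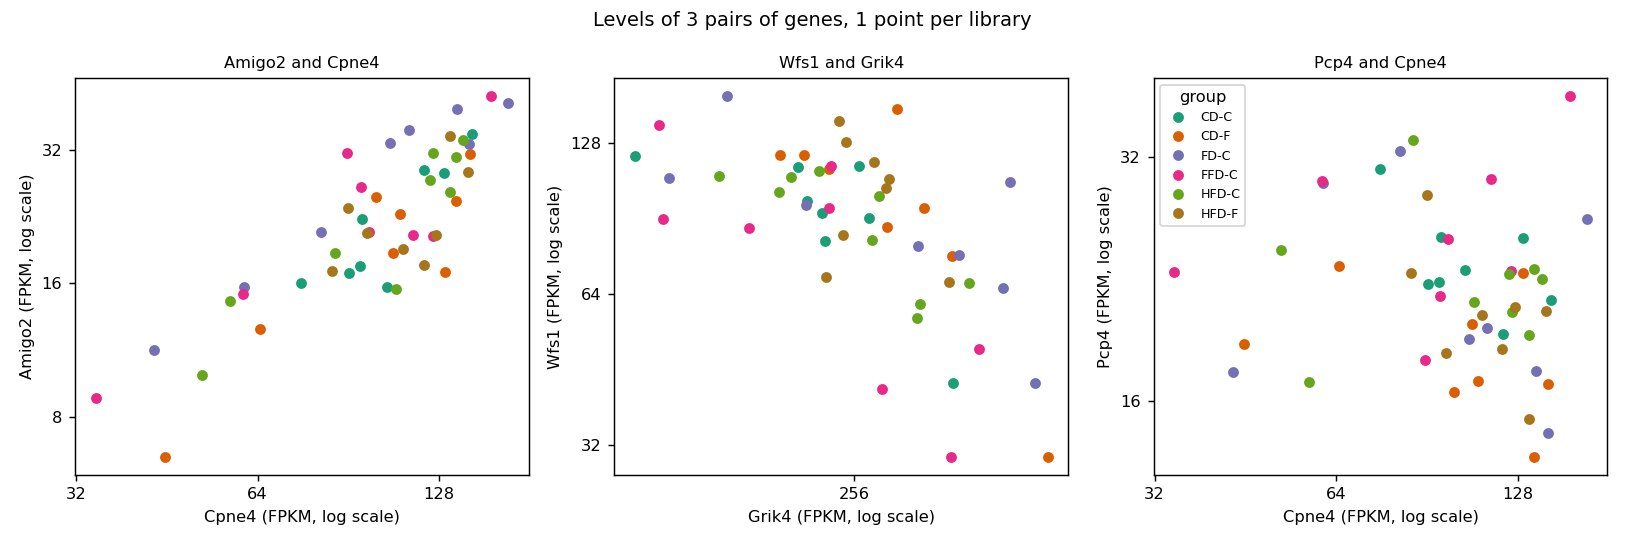
Each point is 1 library, coloured by group, with FPKM on log axes for 3 pairs of genes. Amigo2 climbs with Cpne4 in all groups (r of within-group deviations 0.89), Wfs1 declines as Grik4 climbs (-0.72), and Pcp4 shows no clear trend with Cpne4 (-0.11).

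Among the CA1 genes themselves 4 of 6 pairs were positive past the threshold. Wfs1 correlated with Mpped1 (r = 0.58, rho = 0.60) and Pou3f1 (r = 0.55, rho = 0.59), Pou3f1 with Mpped1 (r = 0.53, rho = 0.46) and with Fibcd1 (r = 0.52, rho = 0.55). Fibcd1 and Wfs1, both CA1 genes, had r = -0.02, rho = 0.06 (adjusted permutation p = 0.955 for r). Fibcd1 and Mpped1 had r = 0.15, rho = 0.24 and did not pass either. Without the 2 libraries apart, r was 0.29 for Fibcd1 and Mpped1, 0.66 for Wfs1 and Pou3f1, and 0.45 for Pou3f1 and Fibcd1. Within groups Fibcd1 and Wfs1 ran from -0.20 to 0.48. Over the means of the 20 title prefixes, Wfs1 had r = 0.21 with Pou3f1, 0.39 with Mpped1 and -0.45 with Fibcd1. Pou3f1 then had 0.57 with Mpped1 and 0.52 with Fibcd1.

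Rgs14 was correlated with genes of both fields, though not with all. It correlated with the CA1 genes Fibcd1 (r = 0.62, rho = 0.67) and Pou3f1 (r = 0.59, rho = 0.51) and with the CA3 genes Bok (r = 0.60, rho = 0.59) and Cpne4 (r = 0.57, rho = 0.57). Its correlation with the CA2 marker Amigo2 also passed (r = 0.44, rho = 0.38), and that with Grik4 did not (r = 0.30, rho = 0.28). The other CA1 genes, Wfs1 (r = 0.04, rho = 0.03) and Mpped1 (r = 0.02, rho = -0.10), did not pass with Rgs14. Without the 2 libraries apart, Rgs14 with Fibcd1 was 0.57 and with Pou3f1 0.47. Over title prefix means, r of Rgs14 was 0.55 with Fibcd1 and 0.67 with Pou3f1. It fell to 0.36 with Bok, 0.30 with Cpne4 and 0.22 with Amigo2. Pcp4 passed with 1 gene only, Grik4, and in the negative direction (r = -0.39, rho = -0.44, adjusted permutation p = 0.0113 for r); its r with Amigo2, the other CA2 marker of the set, was -0.18 and with Rgs14 0.00.

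**Figure D4:**
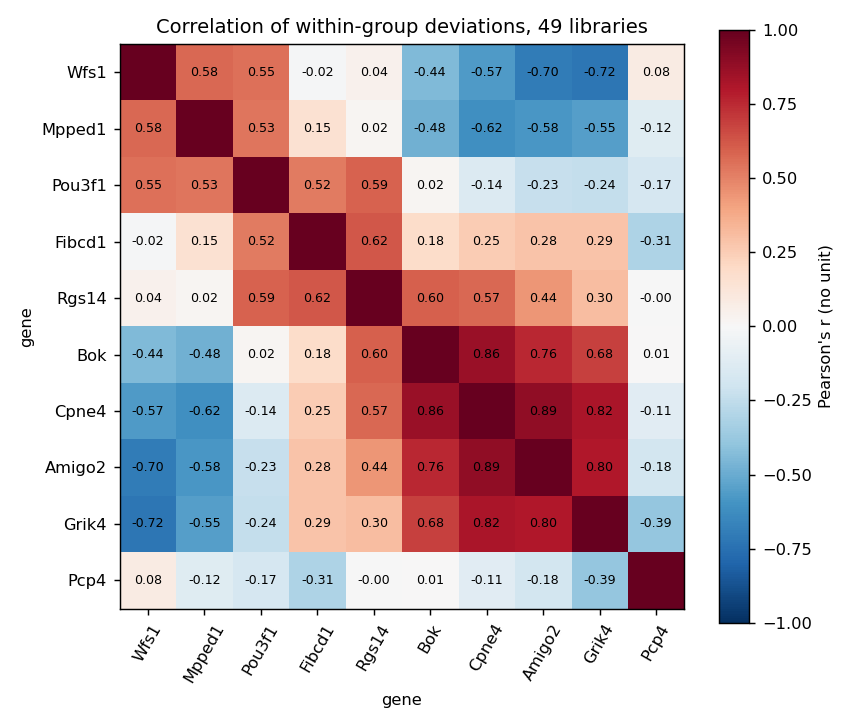
Pearson's r between the within-group deviations of each pair of the 10 genes over 49 libraries, from -1 (blue) to 1 (red). Bok, Cpne4, Amigo2 and Grik4 form a red block, Wfs1 and Mpped1 are blue against it, and Pcp4 is pale against most genes.

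The mean level of each list of other field genes gave a second reading, in a family of 100 relations between the 10 genes and 10 lists. The other CA3 genes correlated with Cpne4 (r = 0.92), Amigo2 (0.87), Grik4 (0.86) and Bok (0.70), and negatively with Mpped1 (-0.68) and Wfs1 (-0.64). Spearman's rho for these was 0.88, 0.85, 0.82, 0.68, -0.71 and -0.64 in the same order. With the other CA1 genes, Fibcd1 had r = 0.81, Pou3f1 0.63 and Rgs14 0.63 (adjusted permutation p for r of 6.67e-05, 0.000167 and 6.67e-05), falling to 0.66, 0.47 and 0.49 without the 2 libraries apart, which are also the 2 furthest. Wfs1 (0.05) and Mpped1 (0.20), though CA1 genes, did not pass with the CA1 list. With the other CA2 genes r was 0.70 for Cpne4, 0.63 for Amigo2 and 0.46 for Rgs14, while Pcp4 had -0.20 and did not pass.

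Markers of tissue next to the hippocampus moved with the same genes. The level of 11 neocortex genes ran against Bok (r = -0.70), Cpne4 (-0.69), Rgs14 (-0.65), Amigo2 (-0.63) and Grik4 (-0.60), and with Mpped1 (0.46) and Wfs1 (0.39). The neocortex level itself ranged from -0.58 to 0.65 over the 47 libraries that did not stand apart, as a mean log2 deviation. The subiculum list, of 7 tested genes, ran against Bok (-0.60) and Cpne4 (-0.47), and the oligodendrocyte list, of 11, ran with Pou3f1 (0.51) and Wfs1 (0.47). The dentate list, of 16, had r of at most 0.28 in size with the 4 genes Amigo2, Bok, Grik4 and Cpne4. Over the 100 relations, both coefficients passed for 8 of the 10 genes with neocortex, 7 with the CA3 list, 6 with CA2, 5 with striatum, 4 with subiculum, 3 with CA1, 2 each with oligodendrocytes and choroid plexus, and 1 each with dentate and pan-neuronal genes. The part of the dissection or of these tissues in the variation of the 10 genes was not tested.

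**Figure D5:**
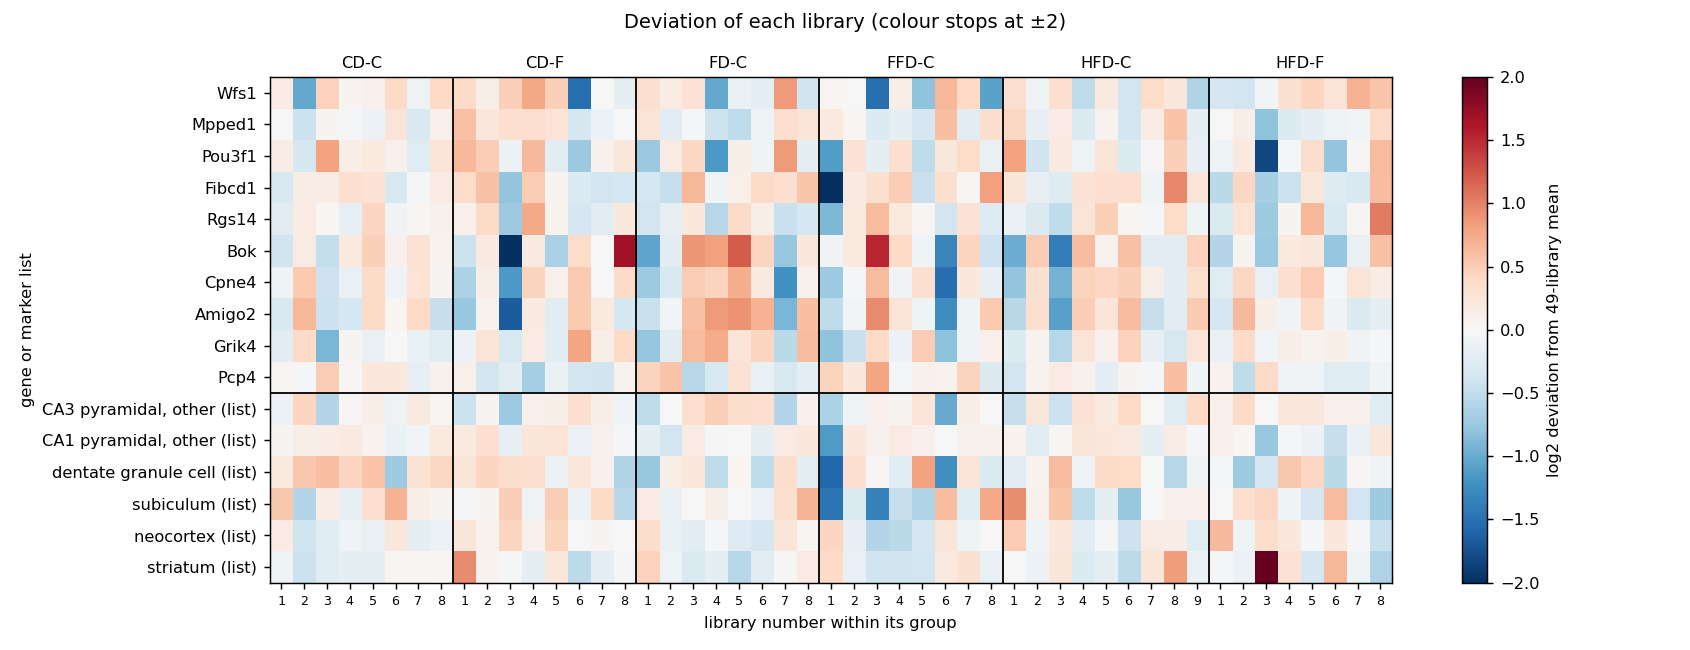
Each column is 1 library in its group, each row 1 of the 10 genes or the mean of a marker list, and colour is the log2 deviation from the mean of 49 libraries, stopped at 2 in either direction. The rows of Bok, Cpne4 and Amigo2 are red together in FD-C library 5 and FFD-C library 3. They are blue together in FD-C library 7 and FFD-C library 6. Other libraries are mixed, as in FFD-C library 8, where Amigo2 is above its mean and Bok and Cpne4 are below. HFD-F library 3 is dark red for striatal genes.

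Over 11973 rows with a gene symbol and a mean of at least 1 FPKM, the genes whose within-group deviations were most like each of the 10 were sought, as a description over 49 libraries. For Cpne4 these were Ccbe1 (r = 0.92), Amigo2 (0.89) and Ptgs2 (0.88), and for Amigo2 they were Cpne4 (0.89), Lsm11 (0.87) and Tmem215 (0.87). Of the 10 genes, only these 2 had another of the 10 among their first 3. Bok was nearest to Tomm34 (0.93), Ly6e (0.89) and Ywhah (0.88), with Cpne4 at rank 8, and Grik4 to Slco2a1 (0.90), Adam11 (0.88) and Frzb (0.85), with Cpne4 at rank 25.

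The CA1 genes had other neighbours. Fibcd1 was nearest to Sertm1 (0.91), Slc24a3 (0.90) and Slc9a2 (0.88), Pou3f1 to Chrna5 (0.87), Stac (0.86) and Lefty1 (0.86), Wfs1 to Arhgef10l (0.76), Car7 (0.76) and Nr4a1 (0.75), and Mpped1 to Ankrd33b (0.71), Cdkl4 (0.70) and Lypd6 (0.69). The nearest of the 10 to Wfs1 was Mpped1, at rank 109, and the nearest to Mpped1 was Wfs1, at rank 51. Rgs14 was nearest to Arpc5 (0.89), Actr3 (0.87) and Arpc2 (0.87). Pcp4 had the weakest neighbours, Cd53 (0.64), mt-Rnr2 (0.63) and Fcer1g (0.61), and the nearest of the 10, Wfs1, came at rank 3955.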

How the data were processed

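FPKM values for 49 libraries were deposited by the authors as 1 table. Per the labels' protocols, RNA came from phenol-chloroform extraction and libraries followed the BGI-500 workflow. Named in the submitters' processing notes are GRCm38.p6, StringTie 1.3.4d, HISAT2 and Trimmomatic 0.38, without roles or settings. Columns of the deposited FPKM table summed to 1220340 to 1340551. The sources used here give no read depth, strand setting or annotation, so that no counting error can be stated.

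Groups came from the labels' mouse group. The 16029 rows averaging 0.5 FPKM or more entered limma 3.58.1 under R 4.3.3 (lmFit and eBayes with trend) as log2(FPKM + 0.5), a scale that understates changes of low genes. The fit was tested on simulated data. Replicate numbers follow accession order and pair nothing. The p-values measure the spread between mice and treat mice that share a title prefix as independent. Prefixes numbered 3 each in CD-F, FD-C and HFD-F, 4 each in CD-C and FFD-C, and 6 in HFD-C. If they mark litters, the maternal comparisons rest on fewer units than mice. Within-group deviations are residuals on group and mark, correlated in Python 3.11.15. Locations and promoters came from RefSeq on GRCm38.p6, and transcript GC content from GENCODE. All 10 listed genes were named whatever their values, with up to 4 passing genes of each list of other field genes and the 3 nearest rows of each gene. Genes, lists and tests were chosen with earlier results of these data known. Alternatives covered pseudocount, filter, scaling, GC content, covariates, title prefix and left-out libraries.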

Additional observations from a re-analysis of the deposited data

Results flagged for a closer look

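In 6 of the 60 sets formed by 1 gene in 1 group, a single library lay apart from the others of its group by Dixon's criterion, applied to FPKM. Chance alone meets it in about 1 of 20 sets if values are normal. That rate may not hold here, since all 6 values were high ends and the genes varied together. The low Fibcd1 of FFD-C library 1, 11.6 FPKM, was not flagged. Fibcd1 was 383 FPKM in HFD-C library 8, with the next library of that group at 248. The same library had Pcp4 at 33.5 FPKM, with the next at 24.5. Pou3f1 was 215 FPKM in CD-C library 3, next to 148. Bok was 253 FPKM in CD-F library 8, next to 101, and 226 FPKM in FFD-C library 3, next to 106. Grik4 was 336 FPKM in HFD-F library 2, next to 283. In CD-F library 8, Cpne4 (131 FPKM), Amigo2 (17.0) and Grik4 (339) were not the highest of their group. In FFD-C library 3, Cpne4 (156 FPKM) and Amigo2 (42.2) were, while Grik4, at 339 FPKM, was below library 5 of that group, at 367.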

How the results depend on the processing

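The 10 genes were tested again under 17 other settings, 14 of them planned, and with each of the 49 libraries left out. Of 3090 differences 1 passed, that of Grik4 in CD-F against CD-C with the level of other CA3 genes as a covariate (1 gene passing, against 0). In the main fit 13.4% of all rows passed in that comparison. Across the settings 215 uncalled values near 0 changed sign. None of the F-test values passed, with a lowest adjusted p of 0.104. Counts over all rows moved more. Rows passing in FD-C against CD-C (32) became 78 without a filter on low values, 19 without the mark, 1 with only the groups compared, 7 with median scaling, 8 with quantile normalization, 0 with the GC trend removed, 57 with the pan-neuronal level and 55 with the CA3 level as covariate, 13 with the title prefix as a random block, 7 with means per prefix and 1 when CD-C libraries with Alb were left out. HFD-F against HFD-C (268) became 140 without a filter, 161 with median scaling, 39 with GC removed, 167 with the prefix as a random block, 1 with it as a fixed block (9 residual degrees of freedom), 0 with prefix means, 175 without the Alb libraries, 117 without the 2 libraries apart and 409 with the CA3 covariate. CD-F against CD-C (2151) became 1426 with only these groups, 725 with GC removed (over 86.0% of rows), 1373 with prefix means and 1234 without the Alb libraries. FFD-C against CD-C (1) became 3 without a filter, 0 with prefix means or without the Alb libraries, and 2 without the 2 libraries apart. HFD-C against CD-C (0) became 26 without a filter and 5 with the CA3 covariate. Any difference (1916) became 693 with GC removed and 1009 with prefix means. Leaving out 1 library gave 0 to 5 rows for HFD-C against CD-C, 1 (without FD-C library 3) to 77 (without FD-C library 5) for FD-C against CD-C, 1 to 7 for FFD-C against CD-C and 72 (without HFD-F library 4) to 372 (without HFD-C library 8) for HFD-F against HFD-C. The causes were not tested. Replicate numbers follow accession order and pair no samples; the only within-prefix fit was that of HFD-F against HFD-C. Depth is unknown. The wide intervals of Bok, Fibcd1 and Amigo2 leave differences of over 0.5 on the log2 scale possible in either direction in HFD-C against CD-C.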
